A study of Mus musculus with 6 samples.

Results

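The 10 genes described here regulate the melanocyte lineage or move melanosomes, the pigment organelles, through the cell: Mitf, Sox10, Pax3, Tbx2, Kit and Ednrb (lineage regulators and receptors, 6 genes) and Rab27a, Rab38, Myo5a and Mlph (transport, 4 genes). They were picked by symbol, and all 10 were found among the 43629 genes of the count table. RNA was counted in 6 libraries, each from a pool of subcutaneous B16F10 tumours of female C57BL/6J mice that were injected with the cells at 8 weeks of age. B16F10 is a single pigmented mouse melanoma line, so the tumour cells of every pool derive from 1 line, and the tissue around them is the host's. The treatments, with 1 pool each, were KS100+anti-PD-1, KS100 (given with control IgG), AZD5363+MK1775+anti-PD-1, AZD5363+MK1775 (with control IgG), anti-PD-1 (with DMSO) and control (DMSO and control IgG). AZD5363 inhibits AKT, MK1775 inhibits WEE1, KS100 is the series' ALDH inhibitor and anti-PD-1 blocks an inhibitory receptor of T cells. Dosing was daily until control tumours reached 2000 mm3. Each treatment is 1 pool, so a difference between 2 pools has no replicate check, and intervals below cover counting error only.

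Melanocytes arise from the neural crest. There PAX3 and SOX10 switch on Mitf, whose product activates pigment enzyme genes and many genes of melanocyte growth and survival. The receptors KIT and EDNRB carry signals from KIT ligand and endothelin 3 that melanoblasts need to survive and spread. At the other end of the pathway, RAB27A on the melanosome binds melanophilin (the product of Mlph), which in turn binds the motor myosin Va (Myo5a), and this complex holds melanosomes at the actin-rich cell edge. RAB38 acts earlier, in the sorting of pigment enzymes to the maturing melanosome.

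Promoters are shown for 3 of the genes because they hold motifs of factors in the same pathway. They come from RefSeq on GRCm38.p6, run from 250 bases before to 50 bases after an annotated start, and are read on the gene's strand. Of the 10 genes, 6 had an entry, with 10 windows in all. Capitals mark the motif. For Mitf the window of the most downstream of 3 starts, on chr6:97991533-97991832 (+), holds the letters of a cAMP response element, TGACGTCA, and of a LEF1 site, CTTTGA, at positions -153 and -205 from the start. For Mlph (chr1:90914850-90915149, +) and for a start of Rab27a (chr9:73063898-73064197, +) the capitals are an E-box, CACGTG, the motif that MITF binds, at positions -48 and -246.
Mitf: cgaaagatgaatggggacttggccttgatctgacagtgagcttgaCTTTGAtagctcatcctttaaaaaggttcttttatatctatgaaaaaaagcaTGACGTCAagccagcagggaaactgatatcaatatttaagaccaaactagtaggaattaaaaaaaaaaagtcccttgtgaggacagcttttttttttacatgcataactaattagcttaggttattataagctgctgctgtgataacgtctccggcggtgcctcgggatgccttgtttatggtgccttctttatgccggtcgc
Mlph: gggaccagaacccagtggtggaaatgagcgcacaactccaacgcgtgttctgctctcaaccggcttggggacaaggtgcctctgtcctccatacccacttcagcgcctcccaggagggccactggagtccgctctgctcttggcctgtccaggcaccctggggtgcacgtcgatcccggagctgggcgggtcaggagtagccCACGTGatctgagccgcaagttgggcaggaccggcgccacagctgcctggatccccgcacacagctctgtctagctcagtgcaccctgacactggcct
Rab27a: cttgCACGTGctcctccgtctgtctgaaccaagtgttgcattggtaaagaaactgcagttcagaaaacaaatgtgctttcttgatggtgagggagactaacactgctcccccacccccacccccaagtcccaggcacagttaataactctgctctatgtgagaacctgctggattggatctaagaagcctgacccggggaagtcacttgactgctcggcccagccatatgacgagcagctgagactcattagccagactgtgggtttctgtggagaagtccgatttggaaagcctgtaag

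Searched on both strands, CACGTG was in 7.15% of the 32851 mouse promoter windows of the same length, TGACGTCA in 1.79% and CTTTGA in 16.0%. Of the 10 windows of the genes described here, CACGTG was in 2, TGACGTCA in 1 and CTTTGA in 2, both of them of Mitf, the other at position 9 of the window chr6:97929567-97929866 (+). The SOX-type motif ACAATG, in 12.6% of windows, was found in 1 of the 10 windows, at position -50 of Myo5a. CATGTG (14.2% of windows) and ACAAAG (18.7%) were in none of them. These are matches of letters only, and counts from transcript 3′ ends do not tell which start was used.

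The pools differed in depth and content, which sets what can be seen of each gene. Totals ran from 25521 counts (KS100+anti-PD-1) to 1591673 (control), a 62.4-fold range, so that a gene at 0 could still stand at up to 3 counts, which is 118 CPM (counts scaled to a pool total of 1000000) in the shallowest pool and 1.89 CPM in the deepest. Mitochondrial genes took 13.2% to 19.8% of counts in the 4 inhibitor pools, against 1.89% in control and 1.29% in anti-PD-1, and genes of ribosomal RNA took 27.4% in AZD5363+MK1775+anti-PD-1. The mitochondrial genes of ribosomal RNA are counted in both shares, so the shares cannot be added. Genes unseen in both deep pools took 9.17% of counts in KS100+anti-PD-1 and 4.47% in KS100. Spread evenly over exons, those counts would put at most 1.28 counts on any of the 10 genes in any pool. Over the 10 genes together they would come to 5.00 in KS100+anti-PD-1, where 12 were counted, and to 4.28 in KS100, where 82 were. The 6 melanocyte markers (Tyr, Tyrp1, Dct, Pmel, Mlana, Slc45a2) summed to 61 counts in KS100+anti-PD-1 (2390 CPM) and 186 in KS100 (4157 CPM), to 9581 and 9610 CPM in the AZD5363+MK1775 pools with and without antibody, and to 16610 CPM in anti-PD-1 and 20030 CPM in control. In such bulk tissue, fewer melanoma cells and less RNA of a gene per cell cannot be told apart.

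**Figure D1:**
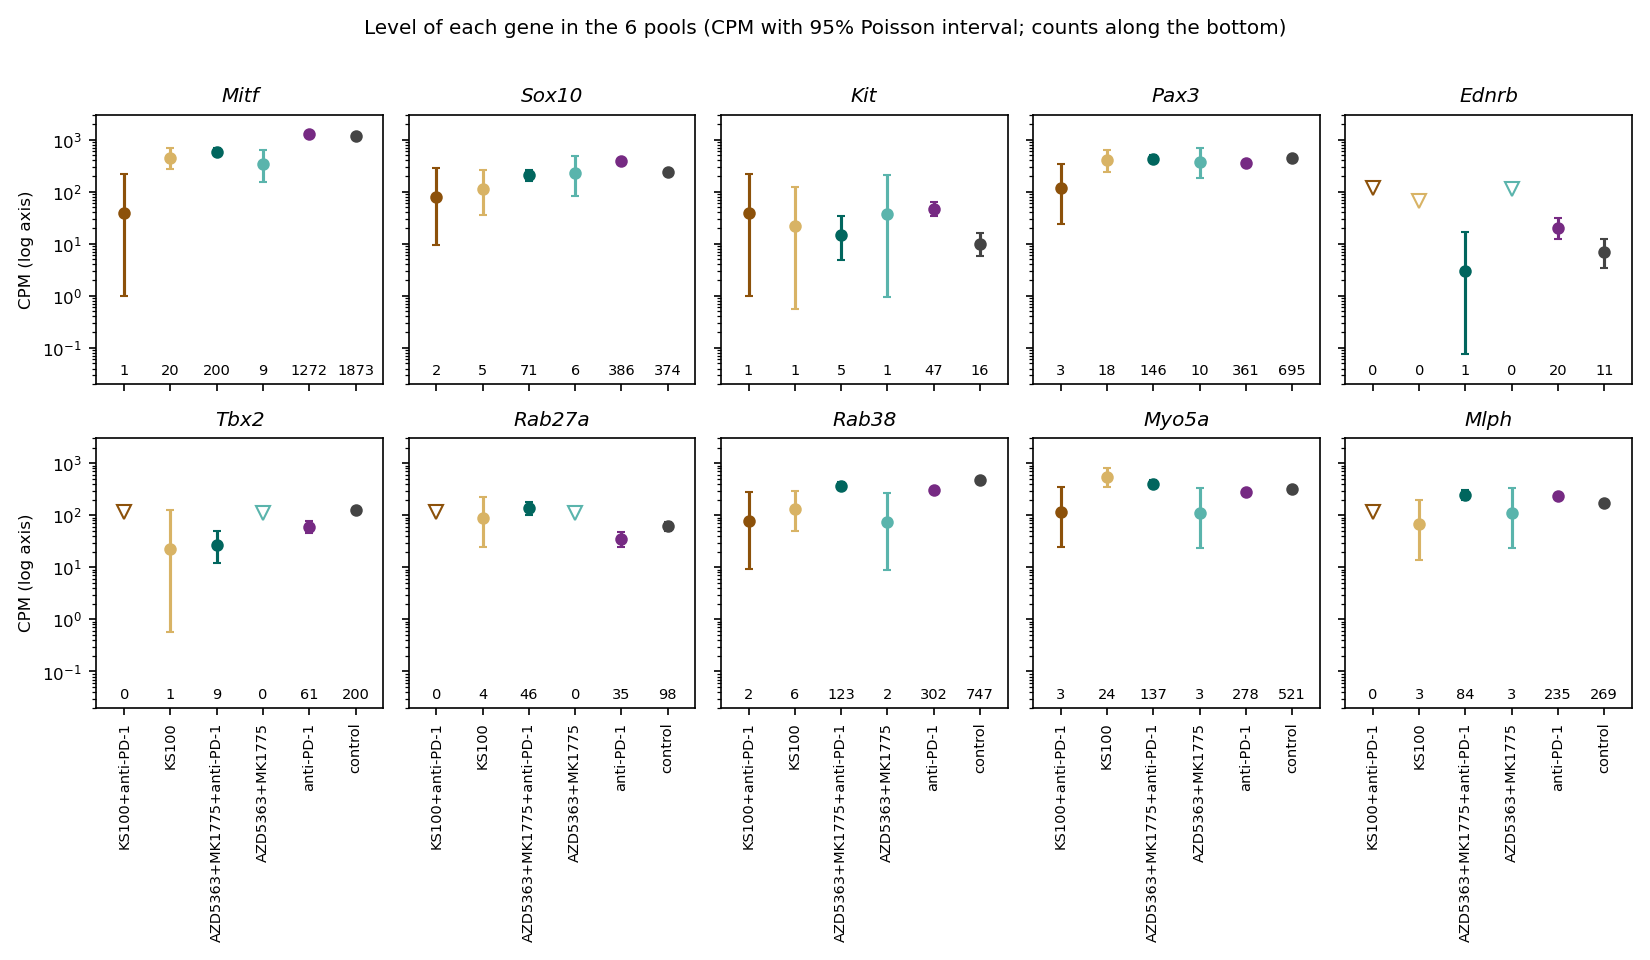
Level of each gene in each pool in CPM on a log axis, with 95% Poisson intervals and the count printed along the bottom; open triangles mark the 3-count limit where the count was 0. The intervals are narrow in control, anti-PD-1 and AZD5363+MK1775+anti-PD-1 and wide in the 3 shallow pools.

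Ratios between pools below were normalised with TMM factors, which weigh down genes that take an outsized share of a pool. Genes were tested in a pair where either pool had 20 or more counts of them. They were called where the ratio was at least 2 in either direction with a 95% exact conditional interval wholly beyond 1.5-fold. The AZD5363+MK1775+anti-PD-1 ratios turn most on this choice, since dividing by library totals instead lowers every log2 ratio to control by 0.69, and leaving mitochondrial and ribosomal RNA genes out of the scaling lowers it by 0.16. Library totals lower the log2 ratios to control by 0.51 in KS100+anti-PD-1 and 0.38 in KS100.

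Mitf (ENSMUSG00000035158, GRCm38 chr6:97807052-98021349, + strand), the master regulator of the lineage, was at 39.2 CPM (1 count) in KS100+anti-PD-1 and 447 CPM (20 counts) in KS100. It was at 591 CPM (200 counts) in AZD5363+MK1775+anti-PD-1 and 338 CPM (9 counts) in AZD5363+MK1775, against 1269 CPM (1272 counts) in anti-PD-1 and 1177 CPM (1873 counts) in control. The 4 inhibitor pools thus all lay below both pools without an inhibitor, and the intervals of KS100, AZD5363+MK1775 and AZD5363+MK1775+anti-PD-1 overlapped one another. After normalisation the ratio to control was 0.0473 (0.0012 to 0.264) in KS100+anti-PD-1 and 0.267 (0.122 to 0.508) in AZD5363+MK1775, both called lower. It was 0.493 (0.300 to 0.763) in KS100, 0.811 (0.698 to 0.939) in AZD5363+MK1775+anti-PD-1 and 1.05 (0.976 to 1.13) in anti-PD-1, none of them called. In KS100 the ratio was past 2-fold but its interval reached inside 1.5-fold; with library totals it was 0.380 and called.

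Against the pool that lacked the antibody, Mitf went opposite ways with the 2 inhibitor arms, as did the median of all genes tested, whose log2 ratio was 1.10 in AZD5363+MK1775+anti-PD-1 over AZD5363+MK1775 and -1.35 in KS100+anti-PD-1 over KS100. It was called higher in AZD5363+MK1775+anti-PD-1 than in AZD5363+MK1775, with a ratio of 3.04 (1.57 to 6.74). It was called lower in KS100+anti-PD-1 than in KS100, with a ratio of 0.0959 (0.0023 to 0.600) that rests on 1 count against 20, in a pair where 34.0% of genes tested were called lower. The first call was lost under each of 3 other scalings (ratios 1.75 with library totals, 2.73 with DESeq2 size factors and 2.90 without mitochondrial and ribosomal RNA genes), and the second with DESeq2 size factors (0.110). Mitf reached the minimum of 20 counts only in AZD5363+MK1775+anti-PD-1 in the first pair and only in KS100 in the second, so the filter leans towards these directions. Against anti-PD-1, Mitf was called lower in KS100+anti-PD-1 (0.0451, 0.0011 to 0.252) and not in AZD5363+MK1775+anti-PD-1 (0.773, 0.663 to 0.898), where library totals give 0.466 and a call.

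Sox10 and Pax3 encode factors that act upstream of Mitf. Sox10 (ENSMUSG00000033006, GRCm38 chr15:79154908-79165240, - strand) had 2 counts in KS100+anti-PD-1, 5 in KS100, 71 in AZD5363+MK1775+anti-PD-1 and 6 in AZD5363+MK1775, against 386 in anti-PD-1 and 374 in control. These are 78.4, 112, 210, 225, 385 and 235 CPM in the same order. By CPM anti-PD-1 was highest, with an interval above that of control. After TMM normalisation AZD5363+MK1775+anti-PD-1 was at 0.905 (0.692 to 1.17) of anti-PD-1, an interval that spans 1. Its ratio to control was 1.59 (1.38 to 1.84) in anti-PD-1 and 1.44 (1.10 to 1.86) in AZD5363+MK1775+anti-PD-1, and it was called in none of the 8 pairs that could test it. Schwann cells also use Sox10, and their 7 markers summed to 541 counts in anti-PD-1 and 779 in control, a ratio of 1.07 (0.959 to 1.20).

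Pax3 (ENSMUSG00000004872, GRCm38 chr1:78101267-78197134, - strand) was called in none of the 8 pairs that could test it. It had 3 counts in KS100+anti-PD-1 (118 CPM) and 18 in KS100 (402 CPM). It had 146 in AZD5363+MK1775+anti-PD-1 (431 CPM) and 10 in AZD5363+MK1775 (375 CPM), against 361 in anti-PD-1 (360 CPM) and 695 in control (437 CPM). Apart from KS100+anti-PD-1, which holds 3 counts, all levels lay between 360 and 437 CPM before normalisation and between 364 and 726 CPM after TMM, with AZD5363+MK1775+anti-PD-1 highest. There its ratio to control was 1.60 (1.33 to 1.91), not called, and 0.988 with library totals. Its ratio to control was 1.20 (0.704 to 1.90) in KS100, where that of Mitf was 0.493, and 0.800 (0.382 to 1.48) in AZD5363+MK1775, where that of Mitf was 0.267. The intervals of the 2 genes overlapped in both pools. Pax3 reached 1.99 (1.63 to 2.42) in AZD5363+MK1775+anti-PD-1 over anti-PD-1.

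Pax3 is also a gene of muscle progenitors, and muscle moved with the treatments. The 8 skeletal muscle markers summed to 2443 counts in AZD5363+MK1775+anti-PD-1, 663 in anti-PD-1 and 73 in control, a ratio to control of 254 in AZD5363+MK1775+anti-PD-1 and of 14.0 in anti-PD-1. Myf5 and Pax7, the progenitor genes among these markers, were undetected in every pool, so the sums come from the other markers. The muscle part in the Pax3 values was not tested.

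Tbx2 (ENSMUSG00000000093, GRCm38 chr11:85832551-85841948, + strand), a repressor of senescence genes in melanoma that is itself switched on by MITF, was lower than control in both treated pools deep enough to count it. It had 0 counts in KS100+anti-PD-1, 1 in KS100, 9 in AZD5363+MK1775+anti-PD-1 (26.6 CPM) and 0 in AZD5363+MK1775, against 61 in anti-PD-1 (60.9 CPM) and 200 in control (126 CPM). Control was the highest pool and anti-PD-1 the next. The call was lower in anti-PD-1, at 0.471 (0.348 to 0.630) of control, and in AZD5363+MK1775+anti-PD-1, at 0.342 (0.154 to 0.662), and both calls stood under the 3 other scalings. Against a limit of 3 counts, the 0 in AZD5363+MK1775 gives at most 0.834 of control and the 0 in KS100+anti-PD-1 at most 1.33. The 95% exact intervals reach 1.035 and 1.65, both past 1, so neither pool could have been called. Endothelial cells and fibroblasts also express Tbx2. Their markers stood at 1.79 and 12.7 times control in anti-PD-1, and at 0.945 and 5.83 times in AZD5363+MK1775+anti-PD-1. Their part in the Tbx2 values was not tested.

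Kit (ENSMUSG00000005672, GRCm38 chr5:75574916-75656722, + strand), the receptor for KIT ligand, had the largest called ratio of the 10 genes in anti-PD-1 over control. It had 1 count in KS100+anti-PD-1, 1 in KS100, 5 in AZD5363+MK1775+anti-PD-1 (14.8 CPM) and 1 in AZD5363+MK1775, against 47 in anti-PD-1 (46.9 CPM) and 16 in control (10.1 CPM). Its intervals in anti-PD-1 and control did not overlap. The ratio was 4.54 (2.53 to 8.57), called higher, and it was called under all 3 other scalings. Kit was not among the genes with enough counts for a test in any inhibitor pool against control. Mast cells also carry Kit: of 8 mast cell markers, 7 were at 0 in anti-PD-1 and all 8 in control, with 1 count of Hdc in anti-PD-1. Other host cell markers moved with it between these 2 pools, at 12.7-fold for 7 fibroblast markers, 2.73-fold for 7 macrophage markers and 1.79-fold for 10 endothelial markers, and their part in the Kit value was not tested.

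Ednrb (ENSMUSG00000022122, GRCm38 chr14:103814625-103844402, - strand), the endothelin receptor, was scarce. It had 20 counts in anti-PD-1 (19.96 CPM) and 11 in control (6.91 CPM), 1 in AZD5363+MK1775+anti-PD-1 and 0 in each of the other 3 pools. The intervals of anti-PD-1 and control overlapped narrowly, and the ratio of 2.81 (1.28 to 6.49) was not called. Endothelial cells also express Ednrb.

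Rab27a (ENSMUSG00000032202, GRCm38 chr9:73044854-73097629, + strand), the GTPase that marks melanosomes for capture, had the largest called ratio of the 10 genes in AZD5363+MK1775+anti-PD-1 over control. It had 0 counts in KS100+anti-PD-1, 4 in KS100 (89.4 CPM), 46 in AZD5363+MK1775+anti-PD-1 (136 CPM) and 0 in AZD5363+MK1775, against 35 in anti-PD-1 (34.9 CPM) and 98 in control (61.6 CPM). Its interval in AZD5363+MK1775+anti-PD-1 lay above those of anti-PD-1 and control. The ratio was 3.57 (2.46 to 5.11) over control and 6.47 (4.08 to 10.3) over anti-PD-1, both called higher under every scaling tried (2.21 and 3.89 with library totals). Over AZD5363+MK1775, which had 0 counts, it was called higher, at 2.095-fold or more against a limit of 3 counts and with a 95% interval from 1.64. That call was lost with library totals and with DESeq2 size factors.

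Cytotoxic T cells, NK cells and macrophages also use Rab27a. The 8 T and NK cell markers summed to 19 counts in AZD5363+MK1775+anti-PD-1 (Ncr1 at 0), to 0 in anti-PD-1 and to 2 in control, and the macrophage markers stood at 6.62 times control. Their part in the Rab27a value was not tested. The only annotated overlap of any of the 10 genes is that of Rab27a with the pseudogene Gm27186 (149 bases, 3.84% of its exons), which had 0 counts in every pool.

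Mlph (ENSMUSG00000026303, GRCm38 chr1:90915085-90951142, + strand) encodes the linker between RAB27A and the motor. It had 0 counts in KS100+anti-PD-1, 3 in KS100, 84 in AZD5363+MK1775+anti-PD-1 (248 CPM) and 3 in AZD5363+MK1775 (113 CPM), against 235 in anti-PD-1 (235 CPM) and 269 in control (169 CPM). The pools AZD5363+MK1775+anti-PD-1 and anti-PD-1 lay above control by CPM, without overlap of intervals. The ratio to control was 2.37 (1.83 to 3.04) in AZD5363+MK1775+anti-PD-1, called higher, and 1.35 (1.13 to 1.61) in anti-PD-1, not called. With library totals the first was 1.47 and not called. Against a limit of 3 counts, the 0 in KS100+anti-PD-1 gives at most 0.987 of control and at most 0.732 of anti-PD-1. The 95% exact intervals reach 1.22 and 0.907, and neither ratio was called. KS100+anti-PD-1 over anti-PD-1 is called lower when library totals are used.

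Myo5a (ENSMUSG00000034593, GRCm38 chr9:75071015-75223688, + strand), the myosin Va heavy chain, was the 1 gene of the 8 tested in KS100 over control with a ratio above 2. It had 3 counts in KS100+anti-PD-1 (118 CPM), 24 in KS100 (536 CPM), 137 in AZD5363+MK1775+anti-PD-1 (405 CPM) and 3 in AZD5363+MK1775 (113 CPM), against 278 in anti-PD-1 (277 CPM) and 521 in control (327 CPM). KS100 was the highest pool, and its interval overlapped that of control. The ratio was 2.13 (1.35 to 3.20) in KS100 over control, not called, and 1.998 (1.64 to 2.42) in AZD5363+MK1775+anti-PD-1 over control, just under the threshold of 2. It was called higher in AZD5363+MK1775+anti-PD-1 over anti-PD-1, at 2.42 (1.96 to 2.99), and over AZD5363+MK1775, at 6.24 (2.09 to 30.6), where the 3 counts make the size uncertain. Both calls were lost with library totals, at 1.46 and 3.59. Macrophages also use Myo5a. Their 7 markers stood at 2.43 times anti-PD-1 in AZD5363+MK1775+anti-PD-1, with 122 counts there against 0 in AZD5363+MK1775. Their part in the Myo5a values was not tested.

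Rab38 (ENSMUSG00000030559, GRCm38 chr7:88430273-88491572, + strand), the sorting GTPase, was lower in 4 of the 5 treated pools than in control on every scaling, and stood on either side of control by scaling in AZD5363+MK1775+anti-PD-1. It had 2 counts in KS100+anti-PD-1 (78.4 CPM), 6 in KS100 (134 CPM), 123 in AZD5363+MK1775+anti-PD-1 (363 CPM) and 2 in AZD5363+MK1775 (75.1 CPM), against 302 in anti-PD-1 (301 CPM) and 747 in control (469 CPM). By CPM control was highest, but after TMM normalisation AZD5363+MK1775+anti-PD-1 stood at 1.25 (1.03 to 1.52) of control, not called. That ratio was 1.25 with DESeq2 size factors, 1.12 without mitochondrial and ribosomal RNA genes and 0.774 with library totals. The ratio to control was 0.149 (0.0180 to 0.540) in AZD5363+MK1775, called lower. It was 0.371 (0.136 to 0.811) in KS100 and 0.237 (0.0287 to 0.859) in KS100+anti-PD-1, which were called only with library totals (0.286 and 0.167). In anti-PD-1 it was 0.624 (0.544 to 0.715) and not called. Rab38 was called higher in AZD5363+MK1775+anti-PD-1 over anti-PD-1, at 2.003 (1.61 to 2.48), a call lost under all 3 other scalings (1.21 to 1.94), and over AZD5363+MK1775, at 8.40 (2.28 to 70.2), a call lost with library totals (4.84).

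**Figure D2:**
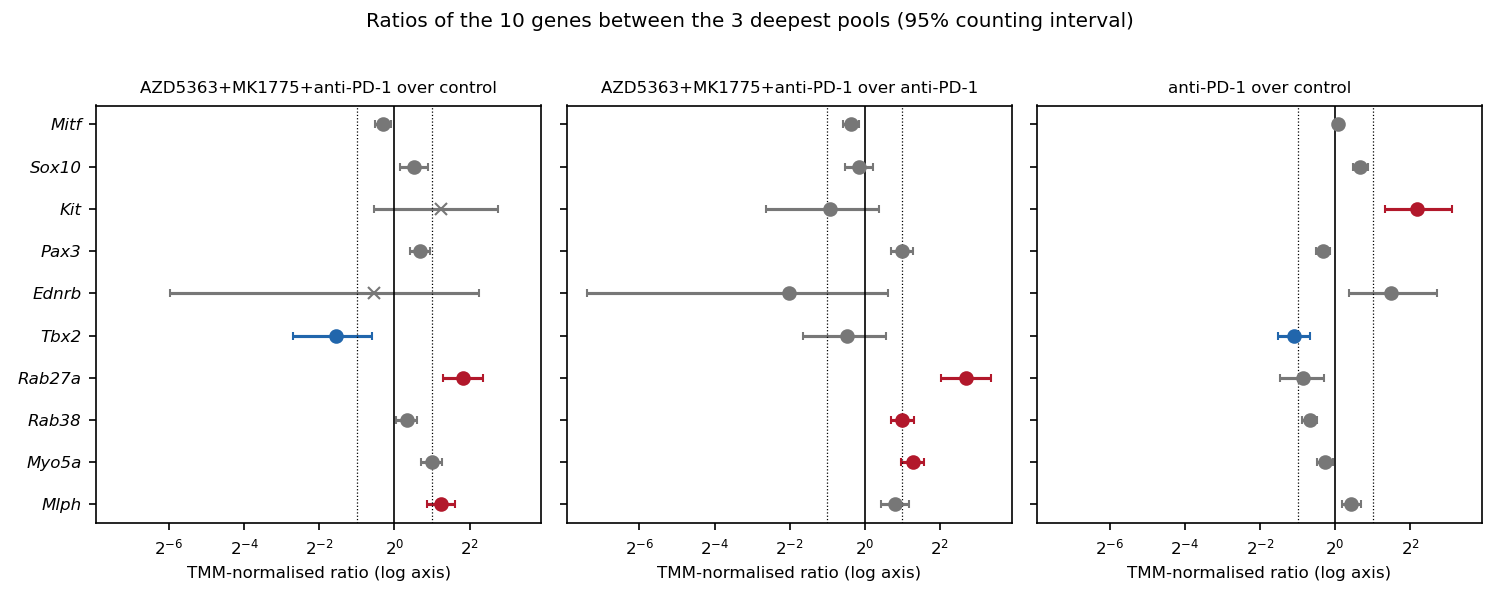
TMM-normalised ratios of the 10 genes between the 3 deepest pools on a log axis with 95% counting intervals; red is called higher, blue called lower, grey not called, and a cross marks too few counts for a test. Rab27a stands at 3.57 over control and 6.47 over anti-PD-1, Kit at 4.54 and Tbx2 at 0.471 in anti-PD-1 over control.

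The calls of the 10 genes are set here beside those of all genes. In anti-PD-1 over control all 10 were tested, with 1 called higher (Kit) and 1 lower (Tbx2), where 2.69% of 8119 genes were called higher and 2.14% lower. In AZD5363+MK1775+anti-PD-1 over control 8 were tested, with Rab27a and Mlph higher and Tbx2 lower, beside 14.9% and 8.02% of all genes. In AZD5363+MK1775 over control 0 of 8 were higher and 2 lower (Mitf and Rab38), beside 1.65% and 1.28%. All 8 reached the minimum only in control, so the filter leans towards lower calls. In KS100 over control 0 of 8 were called, beside 4.50% of genes higher and 1.86% lower. Of these 8, only Mitf and Myo5a reached the minimum in KS100. In KS100+anti-PD-1 over control Mitf was the 1 of 8 called lower and 0 were higher, beside 2.86% of genes lower and 4.59% higher. Here too all 8 reached the minimum only in control, and the filter leans towards lower calls.

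The combinations were also set against their single agents, with the same control or antibody pool shared between pairs. AZD5363+MK1775+anti-PD-1 over anti-PD-1 gave 3 of 10 higher (Rab27a, Rab38, Myo5a) and 0 lower, beside 14.0% and 8.11% of genes. KS100+anti-PD-1 over anti-PD-1 gave 0 of 10 higher and Mitf lower, beside 3.33% and 3.06%. All 10 reached the minimum only in anti-PD-1, so the filter leans towards lower calls there. AZD5363+MK1775+anti-PD-1 over AZD5363+MK1775 gave 4 of 7 higher (Mitf, Rab27a, Rab38, Myo5a) and 0 lower, beside 11.1% and 3.72%. The median log2 ratio was 1.10 over all 2793 genes tested in this pair. All 7 genes reached the minimum only in AZD5363+MK1775+anti-PD-1, so the filter leans towards higher calls here. KS100+anti-PD-1 over KS100 could test 2 of the 10, of which Mitf was called lower, and 34.0% of the 209 genes tested were lower and 4.31% higher, with a median log2 ratio of -1.35 over them. Both genes reached the minimum only in KS100, so the filter leans towards lower calls in that pair.

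The median log2 ratio to control over those of the 10 genes that were tested was -0.10 in anti-PD-1, 0.60 in AZD5363+MK1775+anti-PD-1, -1.76 in AZD5363+MK1775, -0.81 in KS100 and -3.20 in KS100+anti-PD-1. The medians over all genes tested were -0.0036 in anti-PD-1, -0.0075 in AZD5363+MK1775+anti-PD-1, -1.03 in AZD5363+MK1775, -0.49 in KS100 and -2.48 in KS100+anti-PD-1. Shallow pools thus had low medians for genes in general. The summed counts of the 10 genes were 0.221 (0.114 to 0.387) of control in KS100+anti-PD-1, 0.788 (0.625 to 0.980) in KS100, 1.30 (1.21 to 1.40) in AZD5363+MK1775+anti-PD-1, 0.394 (0.272 to 0.551) in AZD5363+MK1775 and 0.964 (0.920 to 1.01) in anti-PD-1. In KS100+anti-PD-1 the sum rests on 12 counts, where 5.00 of background would fall at an even spread over exons. With library totals the sum in AZD5363+MK1775+anti-PD-1 was 0.805 of control, on the other side of 1. In the same order the sums of 10 pigment genes (Tyr, Tyrp1, Dct, Pmel, Mlana, Oca2, Slc45a2, Slc24a5, Gpr143, Slc24a4) were 0.167, 0.254, 0.759, 0.442 and 0.781 of control.

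A ratio within a pool does not depend on the scaling between pools. Per 100 counts of the pigment genes, the 10 lineage and transport genes had 18.5 counts (9.08 to 34.5) in KS100+anti-PD-1, 43.2 (32.9 to 56.2) in KS100, 23.9 (22.1 to 25.8) in AZD5363+MK1775+anti-PD-1 and 12.4 (8.42 to 17.8) in AZD5363+MK1775. They had 17.2 (16.5 to 17.9) in anti-PD-1 and 13.9 (13.5 to 14.4) in control. KS100 was highest and overlapped with KS100+anti-PD-1 alone, and anti-PD-1 and AZD5363+MK1775+anti-PD-1 were each above control without overlap. In KS100 the quotient rests on 82 counts against 190, and in KS100+anti-PD-1 on 12 against 65, with 5.00 of background expected in the 12. By gene, Myo5a had 12.6 per 100 (7.90 to 19.4) in KS100 against 1.51 (1.38 to 1.65) in control, Pax3 9.47 (5.50 to 15.4) against 2.02 (1.87 to 2.17), and Mitf 10.5 (6.29 to 16.7) against 5.43 (5.18 to 5.69). Rab27a had 1.34 (0.976 to 1.79) in AZD5363+MK1775+anti-PD-1 against 0.284 (0.231 to 0.346) in control.

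**Figure D3:**
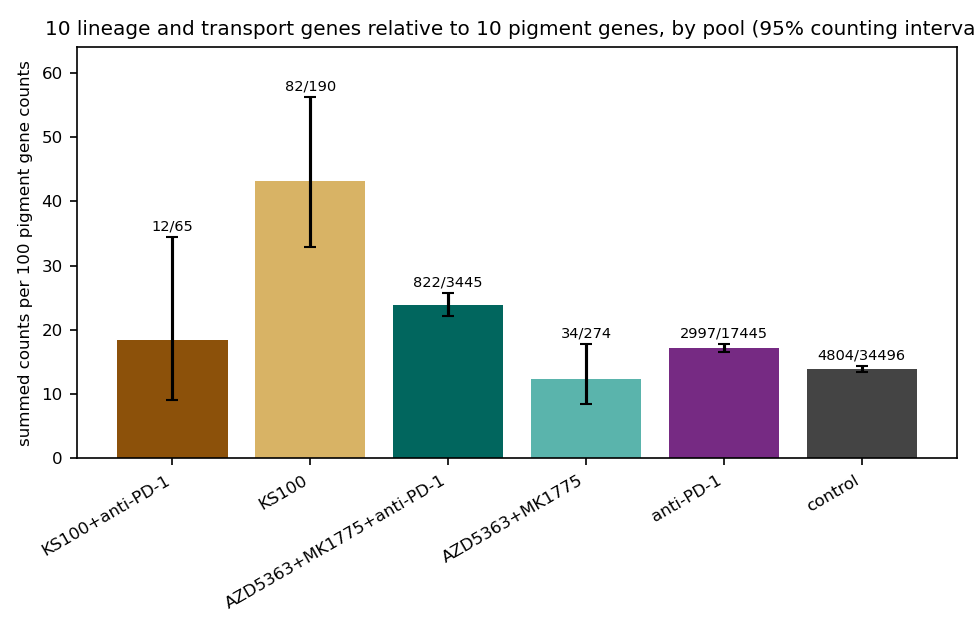
Summed counts of the 10 lineage and transport genes per 100 counts of the 10 pigment genes in each pool, with 95% exact counting intervals and the 2 sums printed above each bar. KS100 stands at 43.2 and control at 13.9.

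The make-up of the summed counts shifted between pools. These shares are compared between pools and not between genes. Mitf held 8.33% of the sum in KS100+anti-PD-1, 24.4% in KS100, 24.3% in AZD5363+MK1775+anti-PD-1 and 26.5% in AZD5363+MK1775, against 42.4% in anti-PD-1 and 39.0% in control. Myo5a held 25.0%, 29.3%, 16.7%, 8.82%, 9.28% and 10.9% in the same order. The 2 shares thus ran in opposite directions in KS100 and in AZD5363+MK1775+anti-PD-1, while the sum itself rests on 12 counts in KS100+anti-PD-1 and 34 in AZD5363+MK1775. Kit held 1.57% in anti-PD-1 against 0.333% in control, and Rab27a 5.60% in AZD5363+MK1775+anti-PD-1 against 2.04% in control.

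**Figure D4:**
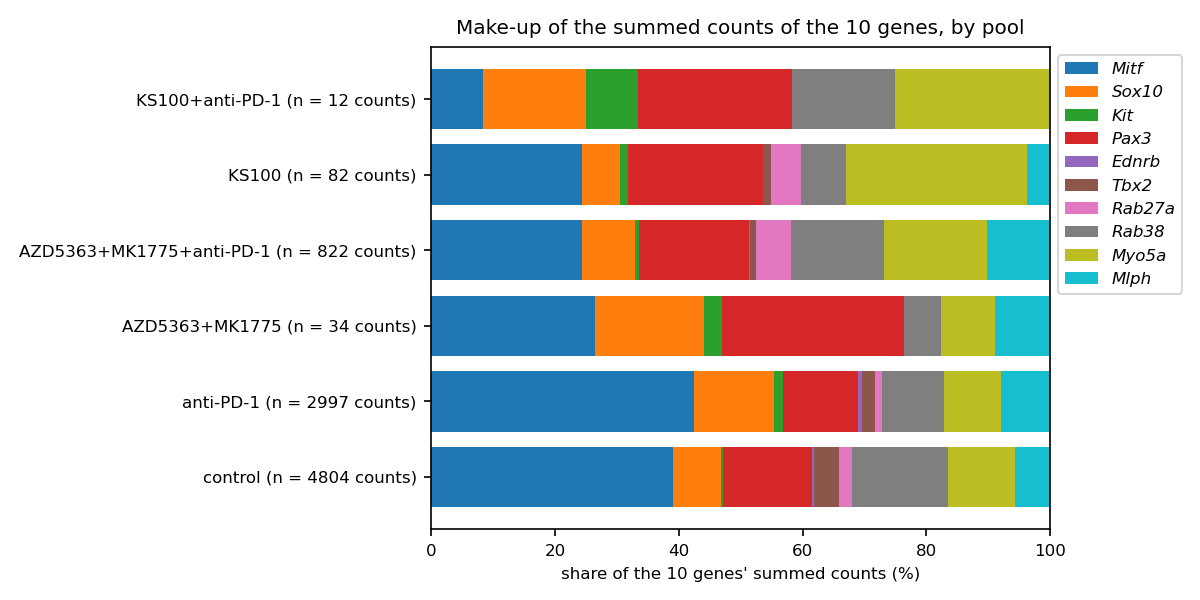
Share of each gene in the summed counts of the 10 genes, one bar per pool, in percent, with the summed counts beside the pool's name. Mitf takes 24.3% in AZD5363+MK1775+anti-PD-1 and 39.0% in control, and Myo5a takes 29.3% in KS100 and 10.9% in control.

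Other genes of the same pathways were read from lists. Of 24 other lineage regulators and signals, 13 were tested in anti-PD-1 over control, with Hmga2 (3.42) and Id3 (2.43), an inhibitor of basic helix-loop-helix factors, higher and 0 lower. Over all genes, 2.69% were higher and 2.14% lower in that pair. In AZD5363+MK1775+anti-PD-1 over control 5 of 12 were higher and 1 lower, beside 14.9% and 8.02% of all genes. Among them were Zeb2 (7.08), a repressor of the E-cadherin gene, the chromatin protein gene Hmga2 (6.24), Sox9 (5.43), a relative of Sox10, and, lower, Ctnnb1 (0.289), which encodes the beta-catenin that works with LEF1 at Mitf. Lef1 itself had 0 counts in every pool but AZD5363+MK1775+anti-PD-1. Zeb2 had 110 counts in AZD5363+MK1775+anti-PD-1 and 0 in AZD5363+MK1775. In KS100+anti-PD-1 over control Sox9 (17.7, from 7 counts), Hmga2 (12.7, from 4) and Zeb2 (4.50, from 6) were higher and Ctnnb1 (0.353) lower, beside 4.59% and 2.86% of all genes. The list summed to 80 counts in KS100+anti-PD-1, where 14.1 of background would fall at an even spread over exons. In KS100 over control and in AZD5363+MK1775 over control 0 of 12 were called.

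Of 15 MITF targets outside the pigment list, 11 were tested against control. Over all genes tested, 2.86% were called lower in KS100+anti-PD-1, 1.86% in KS100, 8.02% in AZD5363+MK1775+anti-PD-1, 1.28% in AZD5363+MK1775 and 2.14% in anti-PD-1. The shares called higher were 4.50% in KS100 and 14.9% in AZD5363+MK1775+anti-PD-1. The 15 targets summed to 37 counts in KS100+anti-PD-1 and 151 in KS100. At an even spread over exons, 8.03 and 6.86 of background would fall in these sums. Trpm1, the melastatin channel gene, was lower in KS100+anti-PD-1 (0.291), KS100 (0.253), AZD5363+MK1775+anti-PD-1 (0.337) and anti-PD-1 (0.397). Gpnmb, a melanosomal glycoprotein gene, was lower in KS100+anti-PD-1 (0.131), KS100 (0.477) and AZD5363+MK1775 (0.444). The targets did not all go with these, as Bcl2, an anti-apoptotic gene, was higher in KS100 (3.47, from 16 counts) and Ppargc1a (5.14), a regulator of mitochondrial genes that muscle also expresses, and Dicer1 (3.65) were higher in AZD5363+MK1775+anti-PD-1.

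Of 54 other transport and sorting genes, 40 or 41 were tested against control. In AZD5363+MK1775+anti-PD-1, where 14.9% of all genes tested were called higher and 8.02% lower, 5 of them were higher and 5 lower. They included Lyst (96.2, 38 counts against 3), whose product governs the size of lysosome-related organelles, Kif1b (4.46), a kinesin, Chm (4.34), the escort protein that lets RAB27A be prenylated, and Rab17 (0.115, 1 count). In anti-PD-1 the kinesin gene Kif13a (0.450) was lower, beside 2.14% of all genes. In AZD5363+MK1775 Rab1a (0.169), a GTPase of early secretory traffic, was lower, beside 1.28%. In KS100+anti-PD-1 Rab7 (0.0787) and Ap3d1 (0.116), a subunit of the AP-3 sorting complex, were lower, on 1 count each, beside 2.86% of all genes. The list summed to 61 counts in that pool, where 25.6 of background would fall at an even spread over exons. Muscle markers were 254 times control in AZD5363+MK1775+anti-PD-1, and their part in the list values was not tested. The median log2 ratios of the lineage, MITF target and transport lists were 0.86, 0.24 and -0.05 in AZD5363+MK1775+anti-PD-1, 0.55, 0.19 and -0.63 in KS100, and 0.14, -0.16 and -0.03 in anti-PD-1, each over the genes tested. By its median the lineage list thus stood above the median of all genes tested in these 3 pools, as given above. Its summed counts were below control in the same pools. They were at 0.655 (0.612 to 0.700) in AZD5363+MK1775+anti-PD-1, 0.853 (0.739 to 0.980) in KS100 and 0.781 (0.756 to 0.806) in anti-PD-1. Ctnnb1 held 7028 of the 10980 counts of the list in control.

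A test with a measure of spread needs all 6 pools. A fit in edgeR with the inhibitor and the antibody as additive terms (quasi-likelihood test, Benjamini-Hochberg adjustment over 4912 genes) lets pools of another treatment serve as replicates and leaves any interaction in the residual. It held 8 of the 10 genes, without Kit and Ednrb, which had too few counts. Of these, 0 were called for anti-PD-1, AZD5363+MK1775 or KS100 by edgeR, and 0 by DESeq2 among those it gave an adjusted p. Over all genes the test called 0.102% higher and 0.0407% lower for anti-PD-1, 1.28% and 0.0611% for AZD5363+MK1775, and 7.21% and 0.489% for KS100.

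The effects on the 8 genes ranged from -0.61 to 0.60 on the log2 scale for anti-PD-1, with a lowest adjusted p of 0.999 in edgeR. For AZD5363+MK1775 they ran from -1.17 (Tbx2) to 1.60 (Rab27a, edgeR adjusted p = 0.71). For KS100 they ran from -2.34 (Tbx2) to 0.62 (Myo5a). The effect of KS100 on Mitf was -1.83, with an adjusted p of 0.25 in edgeR. It was the 1 effect of all those on the 8 genes with an unadjusted p (0.044) below 0.05. Leaving out 1 pool moved these sizes widely. The effect of KS100 on Mitf was -5.78 without the KS100 pool and -0.97 without KS100+anti-PD-1, and that on Tbx2 was -8.48 without the KS100 pool, where the arm rests on 0 counts. That on Myo5a was -2.30 without KS100, on the other side of 0, and up to 1.46 (without control). The effect of AZD5363+MK1775 on Rab27a was 2.64 without the AZD5363+MK1775 pool (edgeR adjusted p = 0.060) and 1.06 without KS100+anti-PD-1. A p that misses the threshold does not show that levels were alike, and 2 residual degrees of freedom allow little. On the other lists the model called Tfap2b and Sox5 higher for KS100, 2 of 11 other lineage regulators fitted, beside 7.21% of all genes fitted. Tfap2b had 0 counts in control and in anti-PD-1, so it is among the genes unseen in both deep pools.

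Genes whose pattern over the 6 pools was most like that of 8 of the 10 were found by Pearson r of log2(CPM + 20) among 5225 protein-coding genes with at least 100 counts. Kit and Ednrb had fewer and were left out. The 6 points share the pools' depth and make-up, so many genes score high. The closest was Tubb4b for Mitf (r = 0.997), Mapk3 for Sox10 (0.989), Eri1 for Pax3 (0.992) and Tmem258 for Tbx2 (0.999). For the transport genes it was Taf2 for Rab27a (0.999), Cox8a for Rab38 (0.999), Tmem30a for Myo5a (0.998) and Zdhhc5 for Mlph (0.999). Among these 8 themselves Rab27a and Myo5a were most alike (0.960), followed by Mitf and Mlph (0.928), and Sox10 and Myo5a least (0.146).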

How the data were processed

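RNA was measured in 6 libraries, 1 per treatment, from tumours pooled per treatment, per the labels. The QuantSeq 3′ FWD kit reads transcript 3′ ends, and a MiSeq read 151 cycles (labels' protocols). The deposited table holds whole-number read counts per Ensembl gene, not normalised by the authors. The submitters' processing notes name bcl2fastq, HISAT2 2.1.0, HTSeq and GRCm38. Not given in the sources used here: annotation release and strand setting. Of 43721 rows, 92 spike-ins (all 0) were left out. Symbols and coordinates came from GENCODE M21, which held 42548 of 43629 genes.

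The 10 genes and all lists were chosen with earlier results of these data known. CPM used each pool's total, with 95% exact Poisson intervals. Pairs were scaled by TMM on genes kept by filterByExpr, with exact conditional (Clopper-Pearson) intervals and a limit of 3 counts for a 0. List medians used a prior count of 2 in proportion to depth. The arm model was fitted in edgeR 4.0.16 (R 4.3.3) over 4912 genes, and DESeq2 1.42.0 was the alternative. Other genes were named where called, at most 4 a list and pair, largest fold first, and Lef1 for its counts of 0. The values of 1 gene of the transport list are not reported here. Python 3.11.15, pandas 2.3.3 and SciPy 1.17.1 were used, and scripts were tested on simulated data. Alternatives were 3 other scalings, other count minimums (10, none), thinning all pools to 25521 counts (20 draws), leaving out a pool or gene, no filter, and DESeq2. Reads carry no molecular identifiers, so amplified copies cannot be told from separate molecules. Intervals treat each read as independent, cover counting error only and may be too narrow even for that.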

Additional observations from a re-analysis of the deposited data

Results flagged for a closer look

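Mitf moved in opposite directions when anti-PD-1 was added to the 2 inhibitor arms, with a ratio of 3.04 in AZD5363+MK1775+anti-PD-1 over AZD5363+MK1775 and of 0.0959 in KS100+anti-PD-1 over KS100. All genes tested in these pairs had median log2 ratios of 1.10 and -1.35, and in the KS100 pair 34.0% of genes tested were called lower. The call in the AZD5363+MK1775 pair was lost under all 3 other scalings, and that in the KS100 pair with DESeq2 size factors. Mitf reached the minimum of 20 counts only in AZD5363+MK1775+anti-PD-1 in the former pair and only in KS100 in the latter. With 1 pool a treatment, the difference between these effects was not tested.

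Rab38 moved in opposite directions when AZD5363+MK1775 was added, with a ratio of 0.149 in AZD5363+MK1775 over control (2 counts) and of 2.003 in AZD5363+MK1775+anti-PD-1 over anti-PD-1, a call lost under all 3 other scalings. The difference between these effects was not tested either.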

How the results depend on the processing

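Of 54 counts of the 10 genes called between pools under the alternatives, 41 stayed within 1.5 times the value given above. Library totals called 2 of them each in KS100 over control, KS100+anti-PD-1 over control and KS100+anti-PD-1 over anti-PD-1, and 0 in AZD5363+MK1775+anti-PD-1 over AZD5363+MK1775. DESeq2 size factors called 2 in the last pair and 0 in KS100+anti-PD-1 over KS100. Thinned to the shallowest pool, the mean over draws was 0 in anti-PD-1 over control, AZD5363+MK1775+anti-PD-1 over control or over anti-PD-1, and KS100+anti-PD-1 over KS100. It was 0.55 in AZD5363+MK1775 over control, and 0.05 in KS100 over control and in AZD5363+MK1775+anti-PD-1 over AZD5363+MK1775. So at the shallow pools' depth most calls between deep pools could not have been made.

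The summed counts turned direction with library totals in AZD5363+MK1775+anti-PD-1 over control (0.805) and over anti-PD-1 (0.812), and moved to 0.607 in KS100 over control and to 1.90 in AZD5363+MK1775+anti-PD-1 over AZD5363+MK1775. Without mitochondrial and ribosomal RNA genes they were 1.16 and 1.22 in the first 2 pairs. Leaving out 1 gene at a time gave 0.909 (without Mitf) to 1.03 (without Rab38) in anti-PD-1 over control, 1.22 (without Myo5a) to 1.61 (without Mitf) in AZD5363+MK1775+anti-PD-1 over control, 0.625 (without Myo5a) to 0.976 (without Mitf) in KS100 over control, and 1.24 (without Myo5a) to 1.77 (without Mitf) in AZD5363+MK1775+anti-PD-1 over anti-PD-1.

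In the arm model 0 of the genes fitted were called under every alternative run: DESeq2, its size factors, scaling without mitochondrial and ribosomal RNA genes, no filter and leaving out each pool. Over all genes, 7 were called for anti-PD-1 (0 to 14 without 1 pool, 2 with no filter, 3 by DESeq2), 66 for AZD5363+MK1775 (9 to 203 without 1 pool) and 378 for KS100 (14 to 290 without 1 pool, 1270 with no filter). Between pools, doing without a count minimum or thinning the pools moved the count of all genes called by over 1.5 times in most pairs, as in KS100+anti-PD-1 over control (592, 4905 with no minimum and 123 thinned). No paired analysis was possible because each treatment is 1 pool.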
